A study of Homo sapiens with 24 samples.

Results

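The enzymes that remove N6-methyladenosine (m6A) from RNA and the proteins that bind it were followed through a knockdown of the m6A methyltransferase METTL3 in prostate cancer cells. The set was fixed by name as 10 genes out of the 60675 in the deposited count tables: the demethylases (erasers) FTO and ALKBH5, and the m6A-binding proteins (readers) YTHDF1, YTHDF2, YTHDF3, YTHDC1, YTHDC2, IGF2BP1, IGF2BP2 and IGF2BP3. All 10 were found, each by a single Ensembl gene identifier. The set was chosen with earlier results of these data known.

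m6A is written on mRNA by a nuclear complex built around METTL3 and METTL14, and it can be taken off again by the Fe(II)- and 2-oxoglutarate-dependent dioxygenases FTO and ALKBH5. What the mark does to a transcript depends on the protein that reads it. The cytoplasmic YTHDF proteins recruit deadenylases and shorten the life of the mRNA, YTHDC1 works on splicing and export in the nucleus, YTHDC2 is an RNA helicase best known from meiotic germ cells, and the IGF2BP proteins are oncofetal RNA-binding proteins that stabilise their targets.

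RNA-seq libraries were prepared from LNCaP:C4-2 (spelled LNCaP:C42 in the sample labels), a castration-resistant derivative of the LNCaP line, and from 22Rv1, a line derived from a relapsed xenograft that also expresses truncated androgen receptor variants. Each line was transfected with a scrambled control siRNA pool (siSCR) or a pool against METTL3 (siMETTL3), transfected again after 48 h, and treated for 72 h with 1 nM R1881, a synthetic androgen, or with the ethanol vehicle, in medium with charcoal-stripped serum. The 8 conditions held 3 libraries each, 24 in all, and all groups shared the androgen-depleted medium and the repeated transfection. Each cell line is a single model, the labels do not say that the replicates were separate cultures, so the p-values measure the spread between these libraries only, and as these are bulk RNA samples fewer expressing cells and less RNA per cell cannot be told apart.

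The libraries held 15716224 to 21306019 counts (median 17671721), and 3 counts, the limit that a count of 0 allows, correspond to 0.126 to 0.194 CPM (read counts per unit of library size, with TMM scaling). METTL3 itself was lower with siMETTL3 in all 4 comparisons, to 65.4% and 67.4% of the siSCR level in LNCaP:C4-2 with vehicle and R1881 (adjusted p = 0.0127 and 0.0256, edgeR) and to 53.9% and 44.02% in 22Rv1 (adjusted p = 1.48e-06 and 1.29e-08), so the knockdown was partial. The androgen target FKBP5 rose with R1881 by 3.49 on the log2 scale in LNCaP:C4-2 siSCR and by 3.33 in 22Rv1 siSCR, whereas KLK3 and TMPRSS2 rose in LNCaP:C4-2 (by 4.08 and 4.26) and did not pass in 22Rv1. The 10 luminal prostate markers were all detected in both lines, and none of the 3 basal markers had a median above 3 counts. The 3 neuroendocrine markers CHGA, SYP and INSM1 were all detected in 22Rv1 (summed level 55.1 to 89.0 TPM, a measure per transcript length) and only SYP in LNCaP:C4-2 (summed level 0.511 to 1.61 TPM). Libraries also differed in how strongly GC-rich genes were represented, with a library-wise contrast of GC-rich against GC-poor genes from -0.473 to 0.358 on the log2 scale in LNCaP:C4-2 and from -0.377 to 0.374 in 22Rv1, and its value is given beside the results it touches.

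The 300-base promoter windows of the genes whose levels differed most between lines or treatments are shown to place these genes, from 250 bases before to 50 bases after the annotated start (RefSeq, GRCh38.p14, 5′ to 3′ on the strand of the gene, CpG dinucleotides in capitals). The window of FTO lies at chr16:53703906-53704205 (plus strand), that of ALKBH5 at chr17:18183578-18183877 (plus strand), that of IGF2BP2 at chr3:185824993-185825292 (minus strand) and that of IGF2BP3 at chr7:23470442-23470741 (minus strand).
FTO: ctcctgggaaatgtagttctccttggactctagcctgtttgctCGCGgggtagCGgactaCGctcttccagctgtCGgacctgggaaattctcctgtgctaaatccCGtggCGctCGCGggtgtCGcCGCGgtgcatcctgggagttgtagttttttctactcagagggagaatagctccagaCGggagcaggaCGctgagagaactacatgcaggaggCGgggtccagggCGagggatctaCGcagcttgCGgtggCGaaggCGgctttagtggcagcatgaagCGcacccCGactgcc
ALKBH5: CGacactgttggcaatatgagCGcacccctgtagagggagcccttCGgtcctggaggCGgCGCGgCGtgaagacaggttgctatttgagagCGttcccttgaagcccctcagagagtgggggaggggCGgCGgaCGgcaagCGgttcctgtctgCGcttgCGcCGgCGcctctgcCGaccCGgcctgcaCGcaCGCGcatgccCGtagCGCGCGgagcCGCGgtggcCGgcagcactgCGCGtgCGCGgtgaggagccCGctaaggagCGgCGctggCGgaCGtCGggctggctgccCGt
IGF2BP2: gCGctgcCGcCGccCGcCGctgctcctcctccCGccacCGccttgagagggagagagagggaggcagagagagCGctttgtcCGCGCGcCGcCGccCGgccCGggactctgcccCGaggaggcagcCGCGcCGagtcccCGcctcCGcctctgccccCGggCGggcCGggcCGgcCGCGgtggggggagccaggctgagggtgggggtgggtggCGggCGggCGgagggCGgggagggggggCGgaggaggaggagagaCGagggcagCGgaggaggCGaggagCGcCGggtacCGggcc
IGF2BP3: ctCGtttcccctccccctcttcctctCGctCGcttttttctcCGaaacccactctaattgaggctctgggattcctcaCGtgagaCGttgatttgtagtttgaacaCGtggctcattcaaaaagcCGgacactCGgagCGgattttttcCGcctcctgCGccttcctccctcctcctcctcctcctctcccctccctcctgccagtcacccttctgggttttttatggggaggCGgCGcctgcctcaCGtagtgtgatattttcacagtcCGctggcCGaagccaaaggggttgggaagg

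These windows differed in CpG content, with 22 CpG sites for FTO, 39 for ALKBH5, 38 for IGF2BP2 and 17 for IGF2BP3 against a median of 14 over 35116 promoter windows. A second annotated start of IGF2BP2, with a window at chr3:185821093-185821392, held 3 CpG sites, and 81.8% of all windows held at least as many. At least as many CpG sites as in the ALKBH5 window were found in 8.71% of all windows, and at least as many as in the FTO window in 37.7%. The hexamers AGAACA and TGTTCT, each the reverse complement of the other and so both strands of the arm of the androgen response element, were in none of the windows of the 8 members with a promoter entry, against 14.8% of all windows. The full palindromic element, AGAACA followed by TGTTCT after 3 bases of any kind, contains both hexamers, was also absent from these windows and was found in 0.00285% of all of them. IGF2BP1 and YTHDF3 were not in the promoter table. In the files FTO (ENSG00000140718) covers chr16:53703963-54121941 on the plus strand and ALKBH5 (ENSG00000091542) covers chr17:18183078-18209954 on the plus strand, in GRCh38.

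In level per transcript length the erasers and readers ranked differently in the lines. In LNCaP:C4-2 the order of the median TPM over 12 libraries was ALKBH5 (436), YTHDF2 (117), YTHDF1 (116), YTHDF3 (39.5), YTHDC1 (36.6), YTHDC2 (24.2), FTO (20.6) and IGF2BP3 (10.3), followed by IGF2BP2 (0.180) and IGF2BP1 (0). In 22Rv1 it was YTHDF1 (102.5), YTHDF2 (94.3), ALKBH5 (88.0), YTHDF3 (58.9), YTHDC1 (56.0), IGF2BP3 (29.4), YTHDC2 (23.8), IGF2BP2 (19.9) and IGF2BP1 (11.7). FTO has no single place in that order, since it held 52.9 to 61.7 TPM in the vehicle libraries, within reach of YTHDF3 and YTHDC1, and 19.1 to 21.01 TPM in the R1881 libraries, within reach of IGF2BP2. The TPM ranges of YTHDF1 and YTHDF2, of YTHDF3 and YTHDC1, and of YTHDC2 and FTO overlapped in LNCaP:C4-2, so their order was within the spread of the libraries. In 22Rv1 the ranges of YTHDF1, YTHDF2 and ALKBH5 overlapped, as did those of YTHDF3 and YTHDC1, and those of IGF2BP3 (25.6 to 32.1 TPM), YTHDC2 (21.5 to 28.8 TPM) and IGF2BP2 (15.1 to 26.4 TPM). ALKBH5 stood apart in LNCaP:C4-2, where its lowest library (321 TPM) was above the highest library of any other member (137 TPM, YTHDF2).

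**Figure D1:**
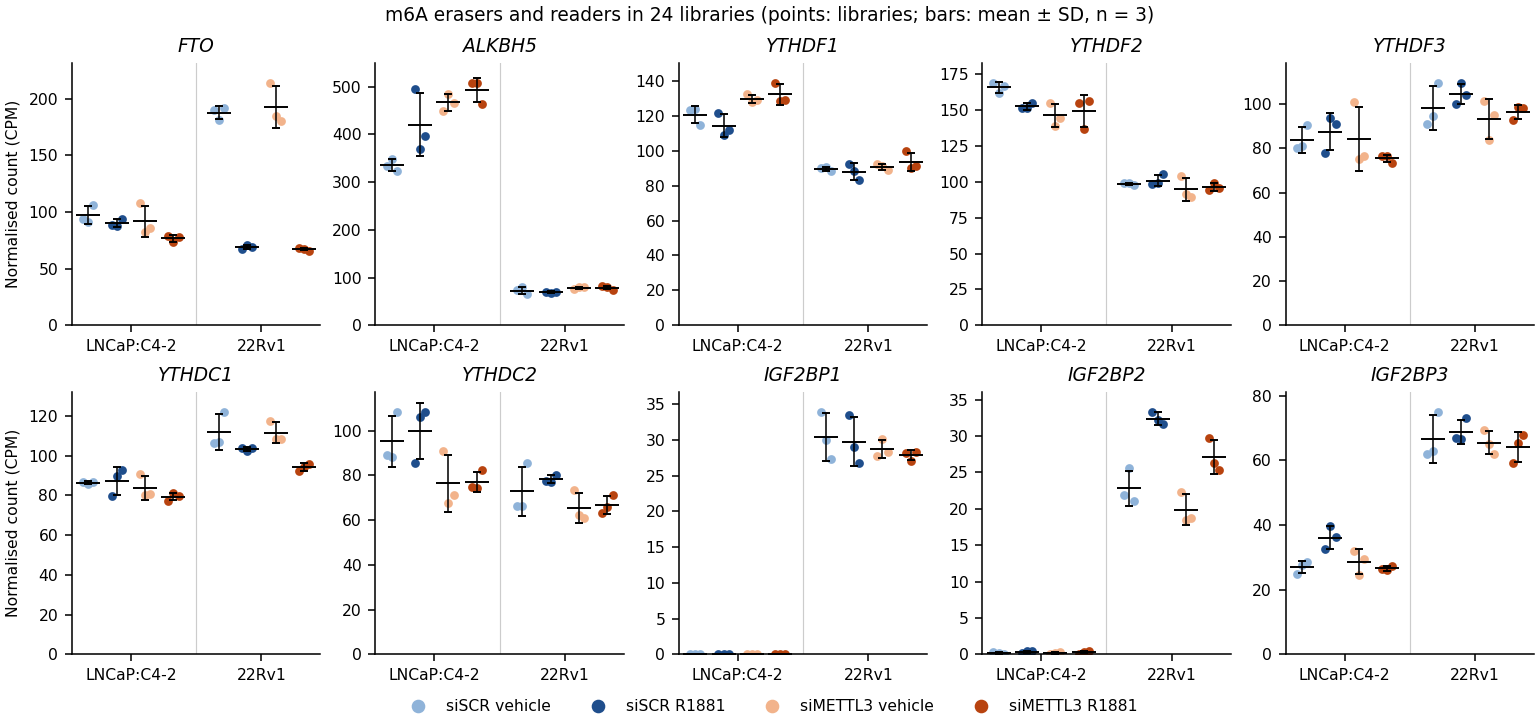
Normalised counts (CPM, linear axes from 0) of the 10 erasers and readers in the 24 libraries, with points for libraries and bars for the mean ± SD of 3. FTO is lower in all 6 R1881 libraries of 22Rv1 (65.9 to 71.3 CPM) than in its 6 vehicle libraries (180 to 214 CPM), ALKBH5 is higher in every LNCaP:C4-2 library than in any 22Rv1 library, and IGF2BP1 and IGF2BP2 lie at or near 0 in LNCaP:C4-2.

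The largest response to androgen among the erasers and readers was that of FTO, and it was seen in 22Rv1. FTO is the first demethylase found for m6A and also acts on m6Am next to the mRNA cap. In 22Rv1 siSCR its CPM were 190, 181 and 192 with vehicle and 67.6, 71.3 and 68.9 with R1881. With siMETTL3 they were 214, 184 and 180 with vehicle and 67.8, 67.3 and 65.9 with R1881. All R1881 libraries were far below all vehicle libraries, with little spread among the R1881 libraries. FTO fell by 1.44 on the log2 scale with siSCR (SE 0.073, adjusted p = 1.12e-12, edgeR quasi-likelihood test), which is to 36.8% of vehicle, and by 1.55 with siMETTL3 (SE 0.073, adjusted p = 3.73e-13). Of the 17865 genes tested, 502 (2.81%) had this or a lower log2 fold change with siSCR and 393 (2.20%) with siMETTL3.

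The same treatment in LNCaP:C4-2 left FTO close to its vehicle level. Its CPM there were 94.1, 91.0 and 106 with vehicle and 88.2, 88.0 and 94.2 with R1881 under siSCR, and 108, 82.4 and 85.7 with vehicle and 79.1, 73.5 and 77.5 with R1881 under siMETTL3. The siSCR groups overlapped, and the siMETTL3 R1881 libraries were all slightly below their vehicle libraries. The log2 fold changes were -0.12 (SE 0.107, adjusted p = 0.465) and -0.25 (SE 0.107, adjusted p = 0.137), and the latter passed with a correction for GC content (-0.23, adjusted p = 0.0413) and with scaling by library size alone (-0.32, adjusted p = 0.0437). The response of FTO was lower in 22Rv1 than in LNCaP:C4-2 by 1.33 on the log2 scale with siSCR (SE 0.127, adjusted p = 1.64e-08) and by 1.27 with siMETTL3 (SE 0.127, adjusted p = 5.47e-08) in a model over all 24 libraries.

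ALKBH5 did not follow FTO. ALKBH5 is the nuclear demethylase that acts on m6A in mRNA. Its CPM in LNCaP:C4-2 siSCR were 334, 350 and 324 with vehicle and 495, 369 and 397 with R1881, without overlap, and the R1881 library at 495 stood above the other two. The log2 fold change was 0.31 (SE 0.098, adjusted p = 0.0289). The GC contrast of that library was 0.069 against -0.473 and -0.439 in the other R1881 libraries. The call was kept with the GC correction, and the part of the GC contrast was not tested otherwise. Without that library the log2 fold change was 0.20 and no longer passed. The call was also lost without any of the 3 vehicle libraries (adjusted p up to 0.103) and with scaling by library size alone (0.19, adjusted p = 0.136). In 22Rv1 the CPM of ALKBH5 were 74.2, 79.6 and 64.9 with vehicle and 70.9, 68.7 and 70.1 with R1881 under siSCR, and the groups overlapped (log2 fold change -0.07, adjusted p = 0.558).

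Of the readers, IGF2BP2 rose with R1881 in 22Rv1 and IGF2BP3 in LNCaP:C4-2 siSCR. IGF2BP2 could not be tested in LNCaP:C4-2, and the response of IGF2BP3 did not pass as different between the lines (adjusted p = 0.0835 with siSCR). IGF2BP2, which binds m6A-containing mRNAs such as MYC and is genetically linked to type 2 diabetes, had CPM of 21.9, 25.6 and 21.01 with vehicle and 33.3, 32.2 and 31.6 with R1881 in 22Rv1 siSCR. With siMETTL3 the values were 22.3, 18.5 and 18.8 with vehicle and 29.8, 26.3 and 25.3 with R1881. In both pools every R1881 library was above every vehicle library. IGF2BP2 rose by 0.50 on the log2 scale (SE 0.10, adjusted p = 0.00057) and by 0.43 (SE 0.102, adjusted p = 0.00251). IGF2BP3, the family member re-expressed in many carcinomas, had CPM of 24.9, 27.6 and 28.7 with vehicle and 32.5, 39.5 and 36.2 with R1881 in LNCaP:C4-2 siSCR, without overlap. It rose by 0.41 (SE 0.119, adjusted p = 0.0206), a call that was lost without vehicle replicate 1 or 2 or R1881 replicate 2 or 3 (log2 fold change 0.33 to 0.49 over all such removals, adjusted p up to 0.102) and with scaling by library size alone (0.29, adjusted p = 0.0881). In LNCaP:C4-2 siMETTL3 its CPM were 32, 24.7 and 29.5 with vehicle and 26.3, 26.2 and 27.5 with R1881, which overlapped. The difference of its R1881 response between the pools was -0.50 (SE 0.169) and did not pass (adjusted p = 0.330).

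The nuclear reader YTHDC1, which contacts splicing factors and the export receptor pathway, passed in 1 of the 4 R1881 comparisons. In 22Rv1 siMETTL3 its CPM were 118, 108 and 108 with vehicle and 92.3, 94.4 and 96.0 with R1881, without overlap. It fell by 0.26 on the log2 scale (SE 0.070, adjusted p = 0.00578). With siSCR it was -0.12 (SE 0.070, adjusted p = 0.200), and this passed with the GC correction (-0.23, adjusted p = 0.000477). YTHDF1, YTHDF2, YTHDF3 and YTHDC2 did not pass for R1881 in any of the 4 comparisons, nor did IGF2BP1 in 22Rv1, where it could be tested.

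Counted over the set, 2 of the 8 members that could be tested in LNCaP:C4-2 passed for R1881 with siSCR (ALKBH5 and IGF2BP3, both higher), against 24.8% of all genes tested and 12.7% that were higher. With siMETTL3 0 of 8 passed in edgeR (1, FTO, at an unadjusted p under 0.05 and 0 in DESeq2), against 16.6% of genes. In 22Rv1 2 of 10 passed with siSCR (FTO lower, IGF2BP2 higher), against 33% of genes, and 3 of 10 with siMETTL3 (FTO and YTHDC1 lower, IGF2BP2 higher), against 33.1%. The median log2 fold change of the members tested was 0.03, -0.02, 0.00 and -0.01 in these comparisons, and that of all genes tested was -0.03, 0.00, 0.00 and 0.00. Scaling by library size alone moved the median of all genes in LNCaP:C4-2 siSCR to -0.15 and the share of calls that were higher from 51.2% to 33.1%, and in 22Rv1 siSCR from 50.2% to 39%. FTO in 22Rv1 was the only member to pass with a change of at least 1.5-fold within a line, a class that held 13.8% of genes with siSCR and 13.5% with siMETTL3.

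**Figure D2:**
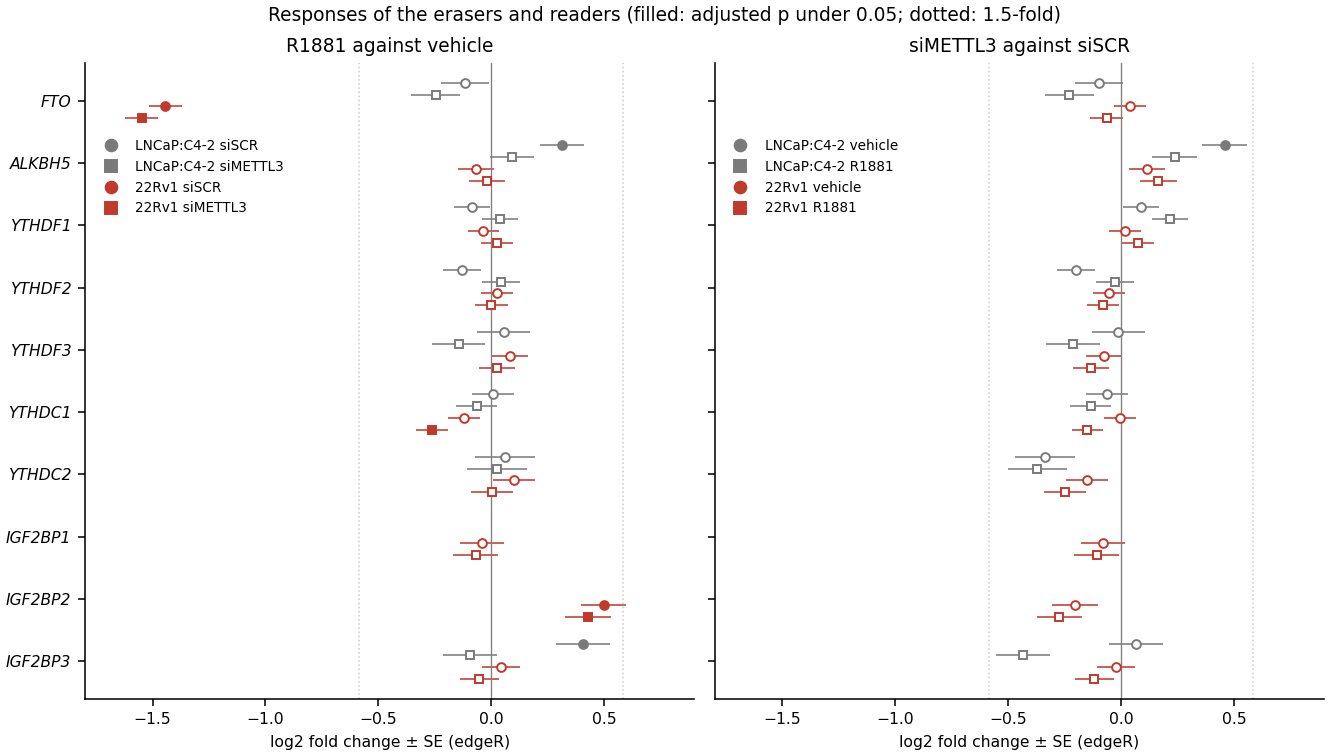
Log2 fold changes ± SE (edgeR) of the erasers and readers with R1881 against vehicle (left) and with siMETTL3 against siSCR (right), for LNCaP:C4-2 (grey) and 22Rv1 (red); filled symbols passed at an adjusted p under 0.05 and dotted lines mark 1.5-fold. FTO in 22Rv1 (-1.44 and -1.55) lies apart from every other value, and on the right only ALKBH5 in LNCaP:C4-2 with vehicle (0.46) is filled; IGF2BP1 and IGF2BP2 were not tested in LNCaP:C4-2.

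For knockdown of METTL3 a single call was made by edgeR over the erasers and readers, that of ALKBH5 in LNCaP:C4-2 with vehicle. Of all genes tested, 1.56% with vehicle and 0.937% with R1881 passed for knockdown in LNCaP:C4-2, and 0.56% and 16.2% in 22Rv1. The CPM of ALKBH5 in LNCaP:C4-2 with vehicle were 334, 350 and 324 with siSCR and 450, 485 and 466 with siMETTL3. These groups were well apart. ALKBH5 rose by 0.46 on the log2 scale (SE 0.098, adjusted p = 0.0302), 1 of 8 members tested, and with the GC correction it was 0.40 (adjusted p = 0.0039). The call was lost without any of the 3 siSCR libraries or without siMETTL3 replicate 2 or 3, with log2 fold changes of 0.43 to 0.49 and adjusted p up to 0.177. With R1881 the CPM were 495, 369 and 397 with siSCR and 507, 509 and 464 with siMETTL3, which overlapped, and the log2 fold change was 0.24 (SE 0.098, adjusted p = 0.135). Between the lines, the effect of siMETTL3 on ALKBH5 with vehicle differed by -0.36 (SE 0.126) and did not pass (adjusted p = 0.219), but it passed with the GC correction (-0.36, adjusted p = 0.0182). In the same vehicle comparison the CPM of YTHDF1 were 115 to 124 with siSCR and 128 to 132 with siMETTL3, and those of YTHDF2 were 162 to 169 and 139 to 155, without overlap, and neither passed.

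In LNCaP:C4-2 with R1881, 0 of 8 members passed for knockdown in edgeR, and 5 were at an unadjusted p under 0.05. The share of all genes at that unadjusted threshold is not given, so these 5 cannot be set against it. DESeq2 called IGF2BP3 alone among the members, where it called 1678 of all 16435 genes. IGF2BP3 had CPM of 32.5, 39.5 and 36.2 with siSCR and 26.3, 26.2 and 27.5 with siMETTL3, without overlap. Its log2 fold change was -0.43 (SE 0.119, adjusted p = 0.0687). YTHDC2 had CPM of 85.5, 106 and 108 with siSCR and 74.7, 74.3 and 82.3 with siMETTL3, again without overlap, and a log2 fold change of -0.37 (SE 0.132, adjusted p = 0.102). Without siSCR R1881 replicate 1, the library with the GC contrast of 0.069, 3 members passed: IGF2BP3 (-0.52), YTHDC2 (-0.49) and ALKBH5 (0.35). Over the 6 removals the count ran from 0 to 3. The share of all genes called without that library is not given, so the 3 cannot be set against it. The GC contrast was 0.204 to 0.358 in the siMETTL3 R1881 libraries and -0.473 to 0.069 in the siSCR R1881 libraries, so it moved with the knockdown. With the GC correction the count of members that passed stayed at 0, and the part of the GC contrast in the single values was not tested.

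In 22Rv1 none of the 10 members passed for knockdown in edgeR. With vehicle 0 were at an unadjusted p under 0.05 and 0 were called by DESeq2. With R1881 3 were at an unadjusted p under 0.05 and 0 were called by DESeq2. Those 3 were IGF2BP2 (29.8, 26.3 and 25.3 CPM with siMETTL3 against 33.3, 32.2 and 31.6 with siSCR, log2 fold change -0.27, adjusted p = 0.0630), YTHDC2 (-0.25, adjusted p = 0.0708) and YTHDC1 (-0.15, adjusted p = 0.148). FTO was at 0.04 (SE 0.070, adjusted p = 0.818) with vehicle and -0.06 (SE 0.074, adjusted p = 0.588) with R1881. The GC contrast was -0.377 to -0.213 in the 22Rv1 siSCR R1881 libraries and 0.038 to 0.214 in the siMETTL3 R1881 libraries. It moved with the knockdown here too. With the GC correction the count of members that passed for knockdown with R1881 stayed at 0, and the part of the GC contrast in the single values was not tested. The R1881 response did not pass as different between the siRNA pools for any member, with 0 of 8 in LNCaP:C4-2 (1 at an unadjusted p under 0.05, 0 in DESeq2, against 0.0% of genes) and 0 of 10 in 22Rv1 (0 and 0, against 0.0168%). The effect of siMETTL3 did not pass as different between the lines either, with 0 of 10 members with vehicle (1 at an unadjusted p under 0.05, 0 in DESeq2, against 0.458% of genes) and 0 of 10 with R1881 (1 and 0, against 0.0926%).

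Between the cell lines all 10 members passed with siSCR and vehicle, against 73.9% of all genes tested, and 6 of them by at least 1.5-fold, against 59.2%. With siSCR and R1881 it was 10 of 10 against 75.0%, with siMETTL3 and vehicle 8 against 73.4%, and with siMETTL3 and R1881 8 against 75.1%. All of these counts include IGF2BP1 and IGF2BP2, which passed the filter on low counts only through their 22Rv1 libraries. Their calls were therefore largely set by that filter. The IGF2BP genes were all higher in 22Rv1. IGF2BP1, an oncofetal reader normally silent after birth, held 3 counts in all over the 12 LNCaP:C4-2 libraries and 463 to 718 counts (26.8 to 33.96 CPM) in each 22Rv1 library. With siSCR all LNCaP:C4-2 libraries were at 0, so its level was at least 182-fold higher in 22Rv1 with vehicle and at least 168-fold higher with R1881, against 3 counts per library. With siMETTL3 the sums were 1 and 2 counts in LNCaP:C4-2 against 1789 and 1444 in 22Rv1, which gave ratios of 1484 (95% exact interval 266.1 to 58660, counting error only) with vehicle and 726.9 (200.9 to 6008) with R1881.

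IGF2BP2 held 0 to 8 counts per library in LNCaP:C4-2 (0 to 0.461 CPM) and 366 to 619 in 22Rv1 (18.5 to 33.3 CPM). It was higher in 22Rv1 by 6.35 to 6.76 on the log2 scale over the 4 conditions (SE 0.261 to 0.290). These values rest on few LNCaP:C4-2 counts, which were 7, 4 and 0 with siSCR and vehicle, where the difference was 6.76 and moved to between 6.25 and 7.63 when a library was left out (7.63 without LNCaP:C4-2 replicate 1). IGF2BP3 was present in both, with 24.7 to 39.5 CPM in LNCaP:C4-2 and 59.1 to 75.0 CPM in 22Rv1, and was higher in 22Rv1 by 1.30 (siSCR vehicle), 0.93 (siSCR R1881), 1.19 (siMETTL3 vehicle) and 1.27 (siMETTL3 R1881). Of its exon bases 17.9% are shared with MALSU1 on the opposite strand, and strand was not stated for the counting. The make-up of the family differed accordingly. IGF2BP3 made 97.1% to 100% of the summed IGF2BP TPM in LNCaP:C4-2 libraries and 42.3% to 54.2% in 22Rv1, where IGF2BP2 made 26.2% to 38.5% and IGF2BP1 16.1% to 23.8%.

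The erasers differed between the lines in opposite directions when no androgen was present. ALKBH5 was lower in 22Rv1 in every condition, with 64.9 to 82.4 CPM against 324 to 509 CPM in LNCaP:C4-2 and no overlap between any libraries of the lines. Its log2 differences were -2.20, -2.59, -2.57 and -2.64 (siSCR vehicle, siSCR R1881, siMETTL3 vehicle, siMETTL3 R1881; SE 0.093 to 0.094). Of its exon bases 11.2% are shared with an antisense gene. FTO was higher in 22Rv1 with vehicle, by 0.95 with siSCR (SE 0.090, adjusted p = 3.96e-10) and by 1.07 with siMETTL3 (SE 0.090, adjusted p = 3.91e-11). With R1881 the order was the other way, with -0.38 for siSCR (SE 0.090, adjusted p = 0.000509; -0.17, adjusted p = 0.0756 with scaling by library size alone) and -0.20 for siMETTL3 (adjusted p = 0.0544). FTO made 39.3% ± 3.14 (SD, n = 3) of the summed eraser TPM in 22Rv1 siSCR with vehicle and 19.9% ± 0.687 with R1881. With siMETTL3 these shares were 37.96% ± 2.90 and 17.5% ± 0.511, and in LNCaP:C4-2 FTO made 3.496% to 7.62% in every library.

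The log2 differences of the YTH readers between the lines ran from -0.75 to 0.41. YTHDF2, which recruits the CCR4-NOT deadenylase to m6A-marked mRNA, was lower in 22Rv1 by 0.75, 0.60, 0.62 and 0.63 below LNCaP:C4-2 on the log2 scale in the 4 conditions (137 to 169 CPM in LNCaP:C4-2 and 89.1 to 105 CPM in 22Rv1). YTHDF1, first described as a promoter of translation, differed by -0.43, -0.38, -0.52 and -0.50 (109 to 139 against 83.1 to 99.6 CPM). No library of either line reached the other for these genes. YTHDF3, which works with both paralogues, differed by 0.23, 0.26, 0.15 and 0.36, of which the siMETTL3 vehicle value did not pass (adjusted p = 0.199), and with the GC correction all 4 turned negative (-0.08, -0.10, -0.08 and -0.10). Its siSCR calls were each lost without any of 3 of the 6 libraries in turn (log2 difference 0.20 to 0.32 with vehicle and 0.15 to 0.31 with R1881, over all removals). YTHDC1 differed by 0.37, 0.24, 0.41 and 0.25, and with the GC correction by 0.05, -0.13, 0.16 and -0.22, so that its direction with R1881 turned, and without LNCaP:C4-2 replicate 1 its siSCR R1881 call was lost (0.15, adjusted p = 0.0953). YTHDC2 was lower in 22Rv1 with siSCR (-0.39 and -0.35, adjusted p = 0.00494 and 0.00967) and did not pass with siMETTL3 (-0.22 and -0.21). Both siSCR calls were lost with scaling by library size alone (-0.24 and -0.15, adjusted p = 0.0651 and 0.259) and with at least 10 counts in every library (-0.26 in both, adjusted p = 0.0503 and 0.0501), and the vehicle call without LNCaP:C4-2 replicate 3 (-0.25, adjusted p = 0.0713). With the GC correction YTHDC2 passed in both siMETTL3 conditions (-0.48 and -0.72). The GC contents of the exons of YTHDF3, YTHDC1 and YTHDC2 were 40.1%, 39.5% and 36.8%.

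**Figure D3:**
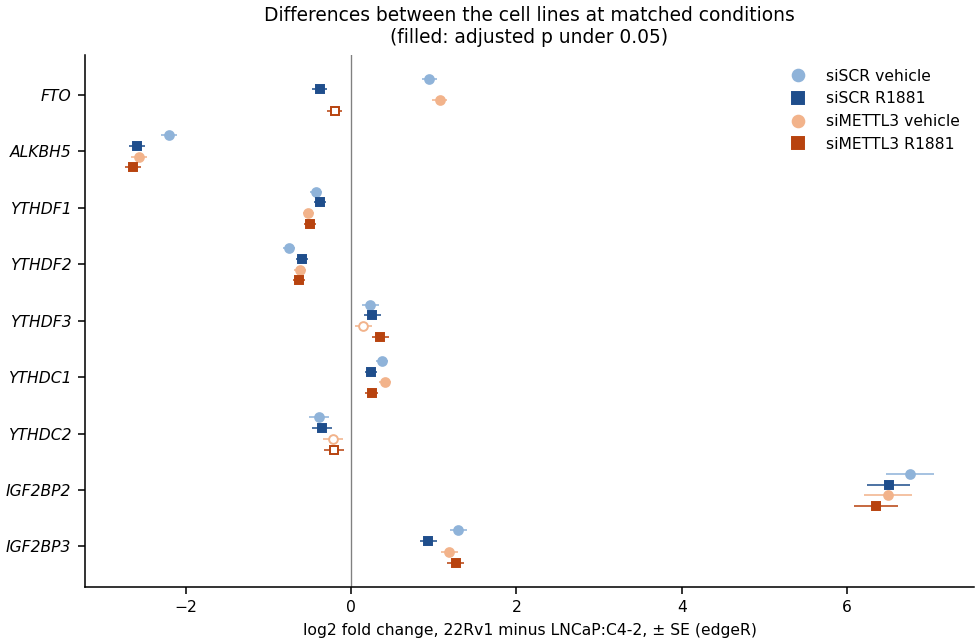
Log2 differences ± SE (edgeR), 22Rv1 minus LNCaP:C4-2, of 9 erasers and readers in the 4 matched conditions; filled symbols passed at an adjusted p under 0.05 and IGF2BP1 is left out because it was at 0 to 1 count per library in LNCaP:C4-2. IGF2BP2 lies above 6, ALKBH5 below -2, and FTO changes side with R1881; the small differences of YTHDF3 in all 4 conditions and of YTHDC1 with R1881 change sign with a GC correction.

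**Figure D4:**
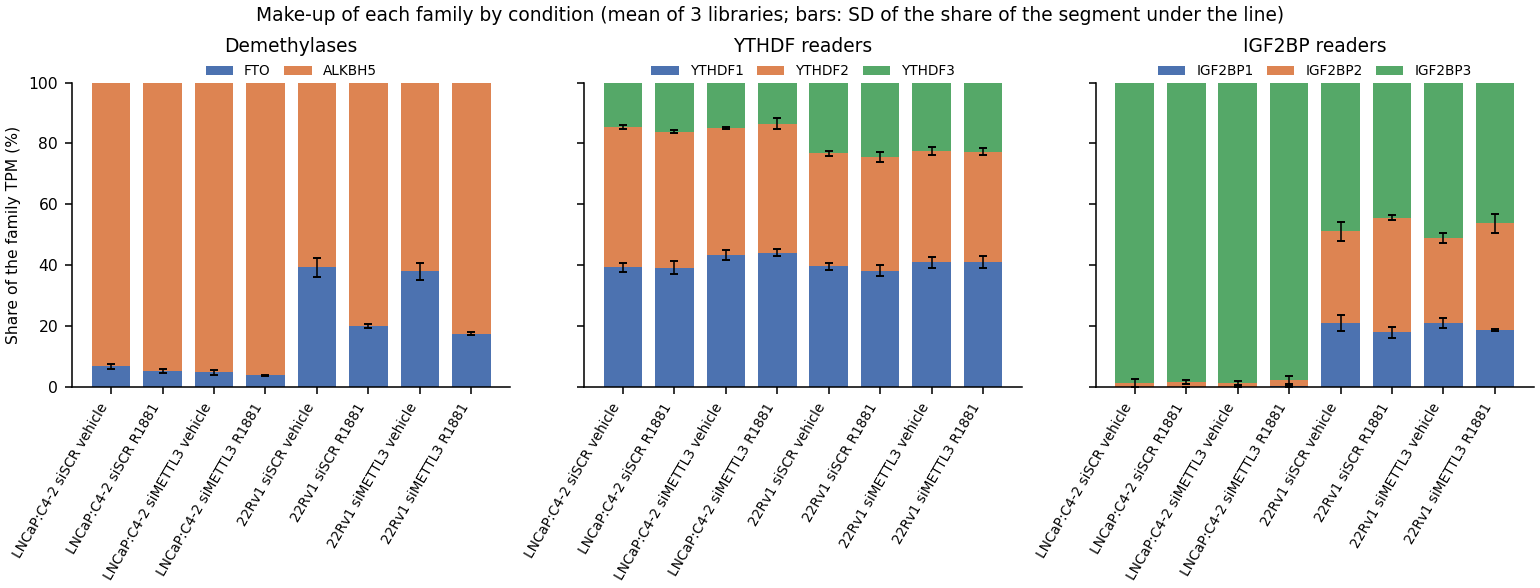
Share of the summed TPM of the demethylases, the YTHDF readers and the IGF2BP readers taken by each member in the 8 conditions (stacked means of 3 libraries; error bars are the SD of the share of the segment under the line). FTO makes 39.3% of eraser TPM in 22Rv1 siSCR with vehicle and 19.9% with R1881, and IGF2BP3 makes at least 97.1% of IGF2BP TPM in LNCaP:C4-2 libraries.

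Of the differences between the lines in the R1881 response, 2 of 10 members passed with siSCR, against 16.8% of all genes, and 1 of 10 with siMETTL3, against 15.3%. FTO passed in both. ALKBH5 passed with siSCR only (-0.38, SE 0.126, adjusted p = 0.0362), and its value with siMETTL3 was -0.07 (SE 0.126, adjusted p = 0.783). The ALKBH5 call was lost without 6 of the 12 libraries in turn (log2 difference -0.53 to -0.32 over all removals, adjusted p up to 0.107). IGF2BP3 was at -0.37 with siSCR (SE 0.144, adjusted p = 0.0835), and DESeq2 called it (-0.42, adjusted p = 0.0237).

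The genes whose levels most resembled those of FTO over the 12 22Rv1 libraries were TENT5A (Pearson r = 0.997), PEG10 (r = 0.996) and ALDH5A1 (r = 0.995), taken from 15219 genes on log2 CPM. These libraries share the R1881 contrast, so the values describe that contrast above all. TENT5A, a cytoplasmic poly(A) polymerase, had log2 fold changes with R1881 of -2.40 and -2.50 in 22Rv1 and 0.05 and -0.56 in LNCaP:C4-2, where neither passed. PEG10, a gene derived from a retrotransposon and linked to neuroendocrine prostate cancer, was at -1.06 and -1.25 in 22Rv1 and at -0.71 and -1.28 in LNCaP:C4-2, where neither passed. ALDH5A1, a mitochondrial dehydrogenase of GABA breakdown, was at -0.89 and -1.01 in 22Rv1 and at -0.16 and -0.54 in LNCaP:C4-2, where the latter passed (adjusted p = 0.00277).

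The genes that reach within 500 kb of FTO on chromosome 16 were examined after the FTO values had been seen. In 22Rv1 siSCR 12 of them could be tested, of which 6 were lower with R1881 (against 16.5% of all genes lower) and 1 was higher (CHD9, 0.28), with a median log2 fold change of -0.39. Among the 6, ENSG00000260936 (-1.765) lies inside the span of FTO on the same strand. Whether its reads come from FTO transcripts was not tested. In the siSCR libraries of LNCaP:C4-2 3 of 11 were lower, against 12.1% of all genes, with a median of -0.24. RPGRIP1L, a ciliary gene that starts beside FTO on the opposite strand, fell by 1.05 in 22Rv1 siSCR (SE 0.094, adjusted p = 1.44e-08) and was at -0.22 in LNCaP:C4-2 siSCR (adjusted p = 0.232). The difference of its response between the lines was -0.83 (adjusted p = 0.000645). AKTIP, a component of the FTS-Hook-FHIP complex, was at -0.68 in 22Rv1 siSCR and -0.10 in LNCaP:C4-2 siSCR, and IRX3, a homeobox gene known to be contacted by enhancers within FTO introns, was at -1.33 and -0.72, with differences between the lines of -0.59 (adjusted p = 0.00496) and -0.61 (adjusted p = 0.00781). The falls were not confined to 22Rv1. In LNCaP:C4-2 IRX3 passed in edgeR with siSCR (adjusted p = 0.000614) and with siMETTL3 (-0.619, adjusted p = 0.00255). With siMETTL3 AKTIP also passed there (-0.385, adjusted p = 0.0295), and RPGRIP1L did not (-0.358, adjusted p = 0.0788). RBL2 was at 0.07 in 22Rv1 siSCR and did not pass.

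**Figure D5:**
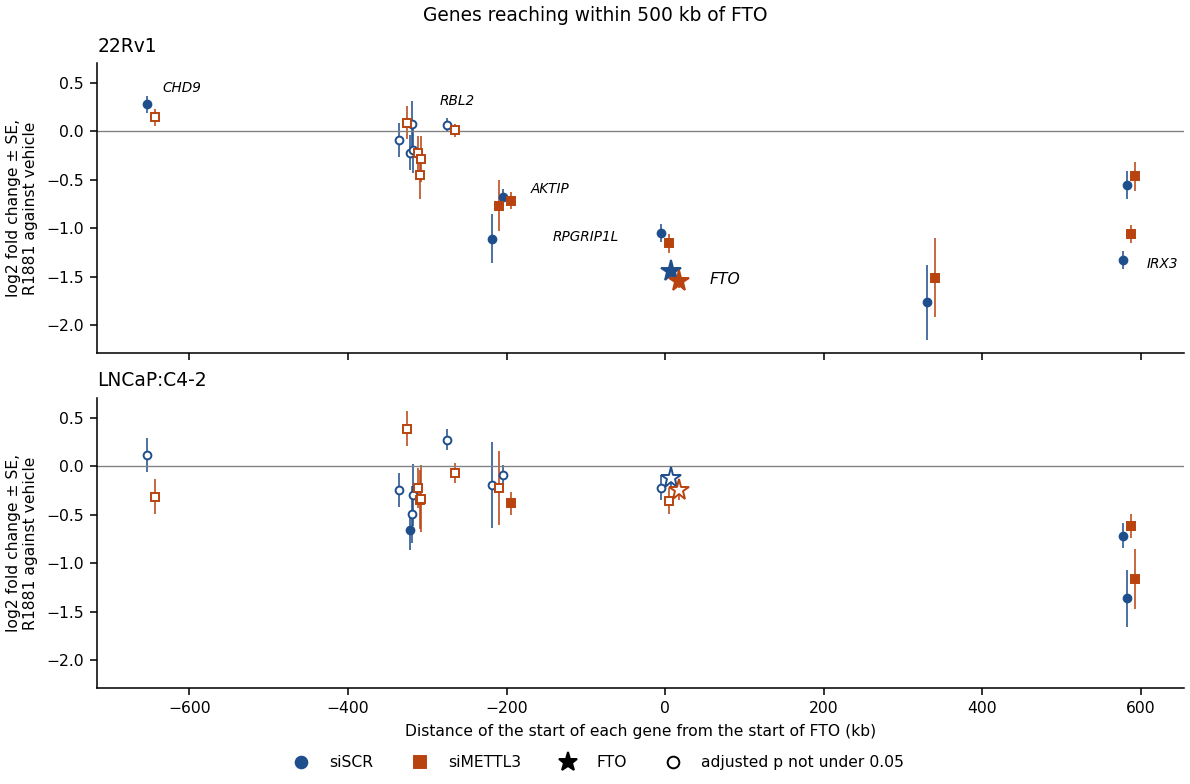
Log2 fold change ± SE (edgeR) with R1881 against vehicle for genes within 500 kb of FTO, by the distance of their starts from the start of FTO in kb, in 22Rv1 (top) and LNCaP:C4-2 (bottom); open symbols did not pass. In 22Rv1 FTO (stars, -1.44 and -1.55), RPGRIP1L, AKTIP and IRX3 lie below 0 in both siRNA pools, while CHD9 and RBL2 do not.

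The line difference of ALKBH5 was set beside its neighbourhood in the same way. Of 28 genes tested within 500 kb of ALKBH5 on chromosome 17, 20 were lower in 22Rv1 than in LNCaP:C4-2 with siSCR and vehicle and 2 were higher, with a median of -0.94, where 36% of all genes were lower and 37.9% higher. Among the lower ones were SREBF1 (-2.35), a regulator of lipid synthesis, RAI1 (-1.37), the gene of Smith-Magenis syndrome, LLGL1 (-1.44), a polarity gene, and SHMT1 (-1.22), an enzyme of one-carbon metabolism. The 2 higher ones were MYO15A (2.67), a myosin of the inner ear, and DRC3 (0.59), a ciliary gene. For the IGF2BP1 neighbourhood 8 of 23 genes were higher and 12 lower, for IGF2BP2 6 of 11 were higher and 3 lower, and for IGF2BP3 9 of 13 were higher and 2 lower.

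The other genes of the pathway were taken from lists of named genes, chosen with earlier results of these data known. The 9 writer genes tested include METTL16, which is not part of the METTL3 complex. Of these 9, 1 rose and 0 fell with R1881 in LNCaP:C4-2 siSCR, against 24.8% of all genes that passed. That gene was CBLL1, a ubiquitin ligase of the complex, which rose by 0.94 (adjusted p = 4.95e-06). In 22Rv1 siSCR 1 rose (CBLL1, 0.38) and 0 fell, against 33% of all genes. In edgeR METTL3 was the only writer that passed for knockdown in LNCaP:C4-2 and in 22Rv1 with vehicle, and in 22Rv1 with R1881 RBM15B also passed (0.29). The GC contrast moved with the knockdown in 22Rv1 with R1881, and the value of RBM15B with the GC correction is not given here. In LNCaP:C4-2 with R1881 4 writers (METTL3, RBM15, RBM15B and CBLL1) were at an unadjusted p under 0.05. DESeq2 called 4 writers there, where it called 1678 of all 16435 genes. Between the lines with siSCR and vehicle 3 writers were higher in 22Rv1 and 2 lower, 5 of 9 against 73.9% of all genes, with METTL3 (0.69) and VIRMA (0.64) higher and METTL16 (-1.28) and WTAP (-0.63) lower by at least 1.5-fold.

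Of 13 partners of the readers (deadenylase subunits, decay and export factors), 3 passed with R1881 in LNCaP:C4-2 siSCR, against 24.8% of all genes, where the exonuclease XRN1 rose by 0.61 (adjusted p = 0.0077), and 0 in 22Rv1 siSCR in edgeR (3 at an unadjusted p under 0.05, 0 in DESeq2), against 33%. With knockdown in 22Rv1 with R1881 5 of 13 fell, against 7.28% of all genes, and 0 rose: CNOT1 (-0.28), CNOT6 (-0.34), CNOT7 (-0.28), NXF1 (-0.31) and XRN1 (-0.28). With vehicle 0 of 13 passed there in edgeR (3 at an unadjusted p under 0.05, 0 in DESeq2). The GC contrast was -0.377 to -0.213 in the 22Rv1 siSCR R1881 libraries and 0.038 to 0.214 in the siMETTL3 R1881 libraries. It moved with the knockdown, and the values of these 5 genes with the GC correction are not given here. Between the lines with siSCR and vehicle 7 of 13 passed, against 73.9% of all genes, with 4 higher in 22Rv1 and 3 lower. Of these, RIDA (-0.65), a translation inhibitor that links YTHDF2 to RNA cleavage, was lower by at least 1.5-fold and 4 were higher by at least 1.5-fold, of which CNOT7 (0.85), CNOT6L (0.90) and CNOT2 (0.72) are deadenylase subunits and MEIOC (4.53), the meiotic partner of YTHDC2, held 7 to 23 counts per library in LNCaP:C4-2 and 253 to 454 in 22Rv1.

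Of the 7 other AlkB dioxygenases, 6 passed between the lines with siSCR and vehicle, against 73.9% of all genes, and 5 of them were lower in 22Rv1, against 36% of genes. ALKBH4 (-1.36), ALKBH2 (-1.03) and ALKBH1 (-0.59) were lower by at least 1.5-fold and ALKBH8 (1.45), a tRNA modification enzyme, was higher. ALKBH7 rose by 0.69 with knockdown in 22Rv1 with R1881 (adjusted p = 0.00537, edgeR). The GC contrast moved with that knockdown, and the value of ALKBH7 with the GC correction is not given here. Of the 9 other m6A-binding proteins 4 were higher and 4 lower in 22Rv1 with siSCR and vehicle, 8 of 9 against the same 73.9%, with ELAVL1 (-0.60), FXR2 (-0.63) and PRRC2A (-1.15) lower by at least 1.5-fold, and none changed by that much within a line.

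The 7 genes around the let-7 microRNAs and the oncofetal programme include known IGF2BP targets. Between the lines with siSCR and vehicle 5 could be tested, of which 5 passed, against 73.9% of all genes. HMGA2, a chromatin protein of the embryo, had 0 counts in every LNCaP:C4-2 library and 152 to 256 counts per library in 22Rv1. It could enter the test only through 22Rv1, so its call was largely set by the filter on low counts. LIN28A and LIN28B, the blockers of let-7 processing, were at 0 to 3 and 0 to 7 counts per library over both lines. H19 fell by 1.68 with R1881 in 22Rv1 siSCR (adjusted p = 0.000223) and by 2.00 with siMETTL3 (adjusted p = 1.6e-05), from 38 to 126 counts per library with vehicle to 13 to 24 with R1881. IGF2, at 36 to 85 counts per library in LNCaP:C4-2 and 0 to 10 in 22Rv1, rose by 1.03 with knockdown in LNCaP:C4-2 with vehicle (adjusted p = 0.0342). ARID3A rose there by 0.92 (adjusted p = 0.032) and with R1881 in LNCaP:C4-2 siSCR by 0.86 (adjusted p = 0.00552). HMGA1 was lower in 22Rv1 with siSCR and vehicle by 2.41 below LNCaP:C4-2 on the log2 scale.

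The transcripts of the members also differed in how often they carry GGACT, the most common form of the sequence in which METTL3 methylates adenosine. It was counted on the sense strand of the Ensembl canonical transcript of each coding gene, with no measurement of m6A in these data. ALKBH5 had 4 in 3159 bases (1.27 per kb), IGF2BP2 5 in 4283 bases (1.17 per kb) and YTHDF2 3 in 2744 bases (1.09 per kb), against a median of 0.925 per kb over 20046 coding transcripts. FTO had 5 in 11573 bases (0.432 per kb) and YTHDF1 1 in 3198 bases (0.313 per kb).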

How the data were processed

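RNA from 24 libraries was sequenced by the authors, and, per the submitters' processing notes, reads were trimmed with Trim Galore and cutadapt, checked with FastQC, aligned with STAR and counted with featureCounts 1.5.0. The deposited values are raw read counts per gene (Ensembl release 83, GRCh38, none normalised). Totals were 15716224 to 21306019, which sets the precision of low genes. Groups came from the sample labels. Symbols were matched for 56558 of 60675 identifiers, and no pair of libraries held identical values.

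Counts were tested with edgeR 4.0.16 (quasi-likelihood F test, TMM, filterByExpr with a minimum count of 10, R 4.3.3). The 12 libraries of a line were fitted together for R1881, knockdown and their interaction, and all 24 for differences between lines. P-values were adjusted by Benjamini-Hochberg over all genes tested. A gene passed at an adjusted p under 0.05, and a 1.5-fold change was marked separately. Counts at an unadjusted p under 0.05 are given without the share of all genes at that threshold. SE was the log2 fold change over the root of F. Exact permutation of 3 against 3 libraries cannot go below p = 0.1 and was not used. CPM used TMM over all libraries, and TPM used exon length. Alternatives were DESeq2 1.42.0, RLE factors, library size alone, no filter, at least 10 counts in every library, only the groups compared, a replicate block, a GC offset (spline, 5 df) and leaving out each library. The code was tested on simulated data. Named were the 10 members, METTL3, FKBP5, KLK3 and TMPRSS2, the 3 genes most like FTO (Pearson on log2 CPM with 0.5 added, mean CPM at least 1), and genes of 5 lists (writers, other m6A-binding proteins, reader partners, other AlkB dioxygenases, let-7 and oncofetal axis) with their counts and values for those changed 1.5-fold; others given by name, and the genes within 500 kb, were chosen after values were seen. Members and lists were chosen with earlier results of these data known. Replicate numbers did not pair the libraries. Promoters came from RefSeq.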

Additional observations from a re-analysis of the deposited data

Results flagged for a closer look

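The response of FTO to R1881 differed between the lines by an interaction test in the model over all 24 libraries, by -1.33 on the log2 scale with siSCR and by -1.27 with siMETTL3 (22Rv1 minus LNCaP:C4-2, 6 of 6 R1881 libraries of 22Rv1 below all 6 vehicle libraries). The response of ALKBH5 differed by -0.38 with siSCR in the same test, the smallest of the differences that passed for the erasers. No explanation of these differences was tested.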

How the results depend on the processing

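The fall of FTO with R1881 in 22Rv1 passed under every alternative run, with log2 fold changes of -1.47 to -1.42 (siSCR) and -1.59 to -1.47 (siMETTL3) when a library was left out. The 43 member values that passed were recalculated, with IGF2BP1 and its differences between the lines left out. The 383 recalculations other than leaving out a library kept side and direction in 358 cases, lost the threshold in 15 and turned in 10. The 10 were YTHDF3 between the lines under the GC offset, alone or with the replicate block (-0.08 siSCR vehicle, -0.10 siSCR R1881, -0.10 siMETTL3 R1881), and YTHDC1 likewise (-0.13 siSCR R1881, -0.22 siMETTL3 R1881); the cause was not tested. Leaving out a library kept 249 of 276 values and turned 0. Counts of members passing moved as follows. Asking for 1.5-fold reduces the count by construction: in LNCaP:C4-2 from 2 to 0 (R1881, siSCR) and from 1 to 0 (knockdown, vehicle), in 22Rv1 from 2 to 1 and from 3 to 1 (R1881, siSCR and siMETTL3), between lines from 10 to 6, from 10 to 5, from 8 to 6 and from 8 to 5 (siSCR vehicle, siSCR R1881, siMETTL3 vehicle, siMETTL3 R1881), and for the line difference of the R1881 response with siSCR from 2 to 1. Library size alone gave 1 in place of 2 and 1 in place of 0 (LNCaP:C4-2 R1881, siSCR and siMETTL3) and 1 in place of 2 for that line difference, as did no filter (1) and only the groups compared (1). The GC offset, with or without the block, gave 1 in place of 0 (LNCaP:C4-2 R1881, siMETTL3), 2 in place of 1 (LNCaP:C4-2 knockdown, vehicle), 3 in place of 1 (line difference of R1881, siMETTL3) and 1 in place of 0 (line difference of knockdown, vehicle). For knockdown with R1881 in LNCaP:C4-2 DESeq2 gave 1, no filter 2 and only the groups compared 2 in place of 0, and in 22Rv1 only the groups compared gave 3 in place of 0. The cause was not tested for these. Without 1 library the counts ranged from 0 to 1 (LNCaP:C4-2 R1881 siSCR), 0 to 2 and 0 to 3 (its knockdown with vehicle and R1881), 2 to 3 (22Rv1 R1881 siSCR), 9 to 10, 8 to 10, 8 to 9 and 8 to 9 (lines: siSCR vehicle, siSCR R1881, siMETTL3 vehicle, siMETTL3 R1881), and 1 to 3 and 1 to 2 (line difference of R1881, siSCR and siMETTL3). In all other comparisons they did not move, at 0 for LNCaP:C4-2 R1881 siMETTL3, 22Rv1 knockdown, both interactions and the line difference of knockdown, and at 3 for 22Rv1 R1881 siMETTL3. Over the whole table, genes called for knockdown in LNCaP:C4-2 were 257 (vehicle) and 154 (R1881) in edgeR and 686 and 1678 in DESeq2.

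With the replicate number as a block, 42 of the 43 values kept their side and 1 did not (YTHDF3 between the lines, siSCR vehicle, 0.23). The counts of members were 2, 0, 1 and 0 in LNCaP:C4-2 and 2, 3, 0 and 0 in 22Rv1 (R1881 siSCR, R1881 siMETTL3, knockdown vehicle, knockdown R1881). The numbers did not pair the libraries: deviations of same-numbered libraries had a mean correlation of -0.012 in LNCaP:C4-2 and -0.011 in 22Rv1, and 3 of 12 libraries in each line correlated best with their own number. Depth limits IGF2BP1 and IGF2BP2 in LNCaP:C4-2, where 3 counts are 0.158 to 0.194 CPM.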
